A study of Chlamydomonas reinhardtii with 45 samples.

Results

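The comparison described here set cells of the green alga Chlamydomonas reinhardtii collected 30 min after the addition of NaCl against untreated cells collected at the start of the time course. It used 8 of the 45 RNA-seq libraries of the study, chosen by their labels: 3 of NaCl 30 min and 5 of control 0 h. The series as a whole holds RNA-seq profiles of cells given NaCl or mannitol and sampled at 6 times, besides untreated cells at 0 and 24 h. All libraries came from the wild-type strain CC-4533 (also called CMJ030), a haploid laboratory strain. The cells grew in Tris-Acetate-Phosphate (TAP) medium under low continuous light and were treated in the early to middle exponential phase. NaCl 30 min libraries held cells exposed to 100 mM NaCl for 30 min, and control 0 h libraries held cells of the same strain, medium and light without added osmolyte. According to the methods of the study, the times of a course were sampled from the same flask and the replicates are biological. The values describe this strain alone. Control 0 h libraries were not taken from cultures kept untreated for 30 min, so the time in the flask and any handling of the culture cannot be told apart from the NaCl.

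Salt acts on a cell in more than 1 way. The added solute draws water out of the cell, and sodium and chloride also enter it, where they have to be exported or stored. Chlamydomonas answers by making glycerol as a compatible solute, and cells under acute stress often reduce growth-related expression, of which the assembly of ribosomes in the nucleolus is a large part. The data are messenger RNA shares. Fewer transcripts of a kind per cell and more of all other transcripts give the same share and cannot be told apart here.

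The values are TPM, which express a transcript as its length-corrected part of the library, and each library sums to 1000000. Sequencing depth cannot be recovered from TPM, so precision rests on the spread between replicates. Between 14029 and 14184 transcripts had a TPM above 0 in NaCl 30 min libraries, against 13970 to 14911 in control 0 h libraries. Correlations between libraries were taken across tested transcripts on log2(TPM + 1) after the median-ratio scaling explained below. They were 0.969 to 0.982 between NaCl 30 min libraries and 0.944 to 0.987 between control 0 h libraries. Control replicate 5 stood apart from control replicates 1 to 4, among which no correlation was below 0.975. By library number, control replicate 5 and NaCl replicate 3 belong to a later series of libraries than the other 6. One transcript, g15293.t1, to which the sources used here give no name, took 19.7 to 49.2% of a NaCl 30 min library and 13.2 to 37.2% of a control 0 h library. Because the total is fixed, such a share pushes every other value down. Counts of calls and list medians are therefore given on 2 scales. These are TPM as deposited, and TPM after median-ratio scaling, which sets libraries level by their typical transcript (the geometric mean over the libraries serves as the standard). The scaling takes the typical transcript as unchanged, which was not tested. Time courses and some single transcripts are given as deposited alone. The median log2 fold change was −0.63 as deposited, −0.48 without g15293.t1 and g15294.t1, and −0.11 after median-ratio scaling. No marker of gametes or zygotes could be matched by name, so the vegetative state was not checked with markers.

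Transcripts with strong changes after 30 min of NaCl were counted on both scales. A transcript was called when its log2 fold change was beyond 2 and its adjusted p from limma was below 0.01. Of 13651 transcripts tested, 237 (1.74%) were called on both scales, 177 of them higher (1.30%) and 60 lower (0.440%) in NaCl 30 min. These are all of the higher calls as deposited and all of the lower calls after scaling, so their balance follows from requiring both scales. For all 237 the 3 NaCl 30 min libraries lay beyond all 5 control 0 h libraries on both scales, and 0 transcripts were called in opposite directions. On a single scale the balance between directions depended on the scaling. As deposited, 482 transcripts (3.53%) were called, 177 higher and 305 lower (1.30% and 2.23% of all, so that 36.7% of calls were higher), with a median log2 fold change of −0.63 over all tested transcripts. After scaling, 551 (4.04%) were called, 491 higher and 60 lower (3.60% and 0.440% of all, 89.1% of calls higher), with a median of −0.11. The 314 transcripts called higher only after scaling all had positive fold changes as deposited (median 1.59). The 245 called lower only as deposited all had negative fold changes after scaling (median −1.60). Scaling divides each library by a single factor, which moves all fold changes in a similar way. The shared signs and the lack of opposite calls follow from this and are no separate result. At a looser limit, a log2 fold change beyond 1 with the same bound on p on both scales, 763 transcripts (5.59%) were higher and 859 (6.29%) lower. On the deposited scale alone 32.9% of transcripts passed it. Every NaCl 30 min library was above every control 0 h library for 8.81% of transcripts as deposited and for 20.3% after scaling. Below, "rose" and "fell" are used of transcripts that passed this looser limit on both scales. Each count of list members that rose or fell is to be read beside the shares of all transcripts, 5.59% and 6.29%.

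**Figure D1:**
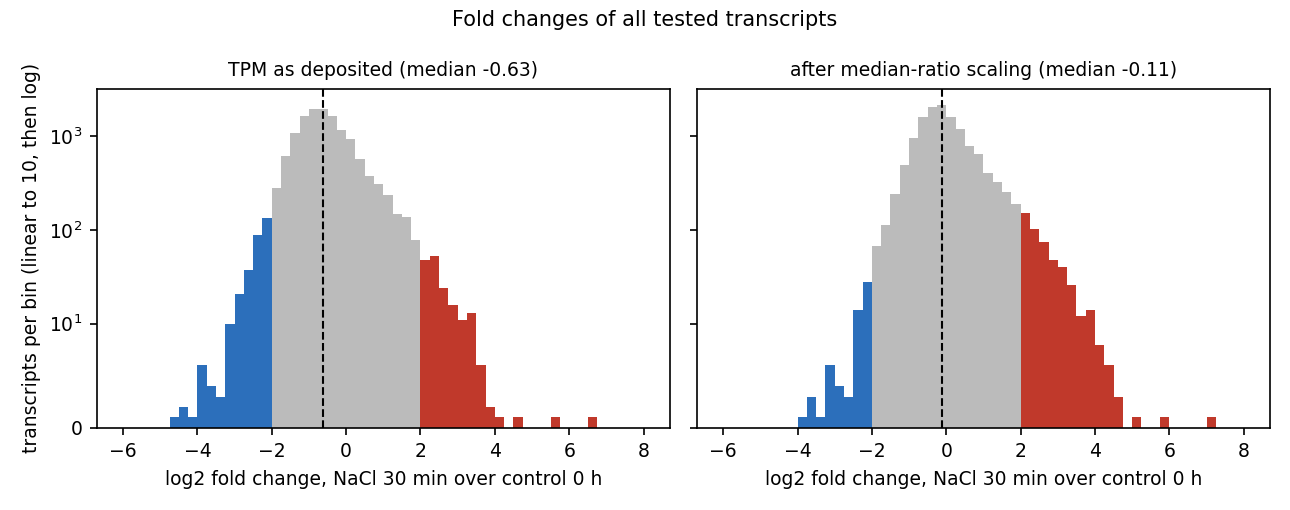
Number of transcripts (vertical axis, linear to 10 and logarithmic above) by log2 fold change of NaCl 30 min over control 0 h (horizontal axis, bins of 0.25) for the 13651 tested transcripts, as deposited on the left and after median-ratio scaling on the right. Red and blue bars lie beyond 2 in either direction, and the dashed line marks the median, −0.63 as deposited and −0.11 after scaling.

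Among the 177 transcripts called higher on both scales, 36 had a deposited log2 fold change above 3 and 39 a mean above 100 TPM in NaCl 30 min. The largest change was that of Cre01.g053000.t1.2, a transcript with no name in the sources used here. It had 511, 486 and 698 TPM in NaCl 30 min, against 4.53, 2.95, 5.19, 4.35 and 9.25 TPM in control 0 h. All NaCl 30 min libraries were thus far above the controls (ratio of means 108, log2 fold change 6.55 ± 0.29 (SE), adjusted p = 1.4e-12, with 7.25 ± 0.29 and adjusted p = 3.5e-08 after scaling). Cre13.g569850.t1.2, likewise unnamed, was close to absent in untreated cells, with 59.4, 54.2 and 45.7 TPM in NaCl 30 min, against 0, 0, 0.266, 0.182 and 0.226 TPM in control 0 h. It was 1 of 14 transcripts in this group for which every control 0 h library was under 1 TPM. Cre11.g482650.t1.3 had 115, 104 and 125 TPM in NaCl 30 min, against 2.99, 3.9, 3.87, 4.31 and 4.77 TPM in control 0 h (28.8 times, log2 fold change 4.54 ± 0.25, adjusted p = 5.9e-11). Cre01.g015500.t1.2 had 377, 357 and 410 TPM in NaCl 30 min, against 22.7, 21.1, 28.9, 21.7 and 35.1 TPM in control 0 h (14.7 times, log2 fold change 3.85 ± 0.25, adjusted p = 8.2e-10). The rule that named these 4 required groups that do not overlap, so their separation is no further result. All 4 stayed called on both scales with any library left out.

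The 60 transcripts called lower on both scales included 27 with a deposited log2 fold change below −3, and for 15 of them every NaCl 30 min library was under 1 TPM. The 4 largest decreases after scaling were again of unnamed transcripts. Cre04.g222800.t1.2 had 0.965, 1.21 and 2.48 TPM in NaCl 30 min, against 87.2, 31.2, 50.7, 52.7 and 93.6 TPM in control 0 h (log2 fold change −4.59 ± 0.33, adjusted p = 6.5e-09, with −3.97 after scaling). The most abundant of the 4 in untreated cells, Cre06.g309000.t1.2, had 13.7, 15.9 and 22.7 TPM in NaCl 30 min, against 594, 217, 276, 390 and 690 TPM in control 0 h (24.9 times lower, log2 fold change −4.46 ± 0.34, adjusted p = 2.9e-08, with −3.70 after scaling). The controls of this transcript ranged over 3-fold among themselves. Separation from the treated libraries was a condition for naming it. Cre05.g237700.t1.2 (mean 6.32 ± 2.48 TPM in NaCl 30 min and 152 ± 47.4 TPM in control 0 h; SD) and Cre10.g466500.t1.2 (1.92 ± 1.35 and 49.7 ± 12.9 TPM) completed the 4. Few of the 237 could be given a name: 398 tested transcripts have a description in the paper or its supplementary annotation, which covers its phosphoproteome and mutant screen, and 3 of these were called on both scales.

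**Figure D2:**
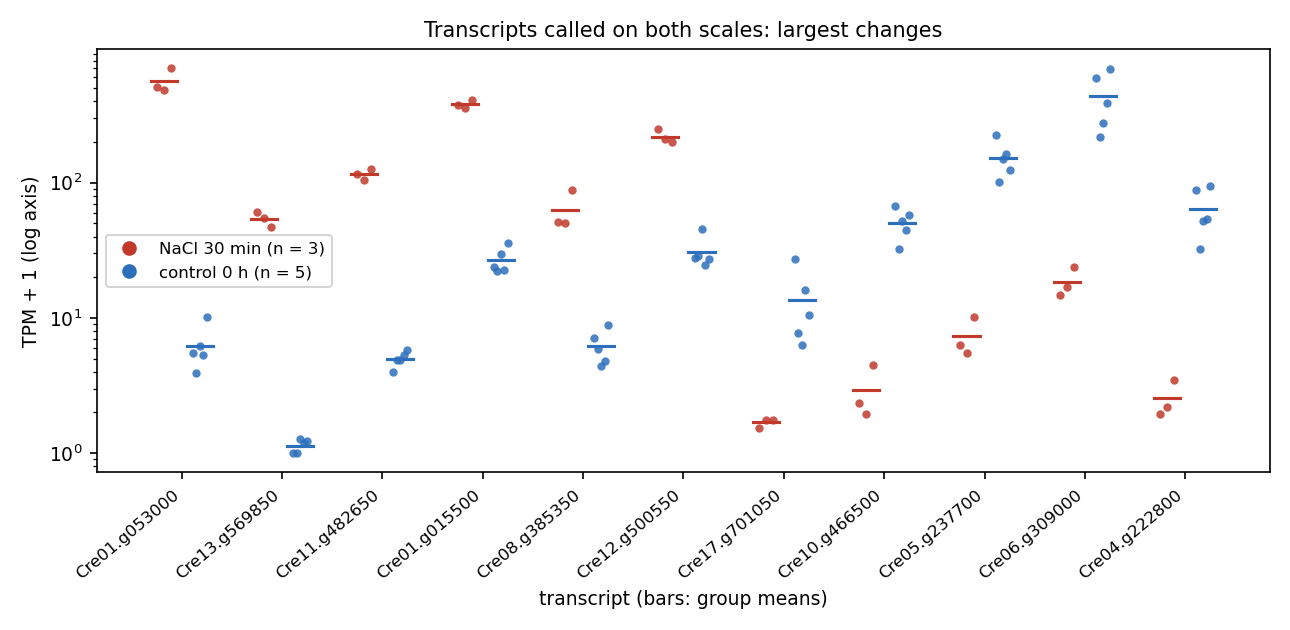
TPM + 1 on a logarithmic axis in each NaCl 30 min (red) and control 0 h (blue) library for the 11 transcripts named by size of change among those called on both scales; short bars are group means. The libraries of the 2 groups do not overlap for any of the 11, as the rule that named them required.

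Transcription factors gave the largest increase of a described gene. AP2 (Cre08.g385350), annotated as an AP2-like ethylene-responsive factor, the family of DNA-binding proteins that in land plants includes many stress regulators, had 49.8, 49.3 and 87 TPM in NaCl 30 min, against 6.12, 4.85, 3.42, 3.83 and 7.88 TPM in control 0 h. Its means differed 11.9 times (log2 fold change 3.34 ± 0.30, adjusted p = 3.9e-08, with 4.02 ± 0.28 and adjusted p = 7.5e-07 after scaling), and the call held with any library left out. Every NaCl 30 min library was above every control, as in all transcripts called higher on both scales, so this is no further result. AP2 is also on the list of mutant screen hits of the study. A SQUAMOSA promoter-binding-like factor (Cre02.g112750) had 32.4, 24.5 and 22.5 TPM in NaCl 30 min, against 6.07, 6.2, 6.86, 4.68 and 6.62 TPM in control 0 h (1.95 ± 0.26, adjusted p = 7.1e-06, with 2.65 after scaling). A JmjC-domain demethylase (Cre16.g654550), an enzyme described as removing methyl groups from lysine 36 of histone H3, had 28.8, 23 and 31.5 TPM in NaCl 30 min, against 10.9, 5.34, 7.36, 5.91 and 5.84 TPM in control 0 h (1.86 ± 0.28, adjusted p = 2.2e-05, with 2.57 after scaling). Both rose, and both were called with the stricter limit after scaling, not as deposited. Over the whole list of transcription factors and chromatin proteins, 3 of 17 tested members rose and 1 fell, with a median log2 fold change of −0.43 as deposited and 0.31 after scaling, beside −0.63 and −0.11 for all transcripts.

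Of the ion and solute transport list, the member that changed most was Cre12.g500550, described as a calcium-activated chloride channel regulator, a family known in animals for modulating chloride currents. It had 249, 208 and 198 TPM in NaCl 30 min, against 26.9, 27.7, 44.2, 23.5 and 26.4 TPM in control 0 h (7.34 times, log2 fold change 2.86 ± 0.26, adjusted p = 5e-08, with 3.62 ± 0.18 after scaling). Its groups did not overlap, as in all transcripts called on both scales. A magnesium transporter (Cre07.g352750) rose more modestly, with 38.2, 32.1 and 37.5 TPM in NaCl 30 min, against 20.7, 13.4, 22.3, 12.2 and 12.9 TPM in control 0 h (1.13 ± 0.27, adjusted p = 0.0017, with 1.88 after scaling). Without NaCl replicate 1 it no longer passed as deposited (1.09, adjusted p = 0.013). A sodium-dependent phosphate transporter (Cre16.g675300) fell (10.4, 6.17 and 8.9 TPM in NaCl 30 min, against 52.7, 26.7, 38.4, 37.2 and 23.1 TPM in control 0 h; −1.92 ± 0.29, adjusted p = 2.7e-05, with −1.19 after scaling). In all, 2 of 20 members rose and 1 fell, beside 5.59% and 6.29% of all transcripts. The list's median was −0.80 as deposited and −0.10 after scaling.

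The study also follows a pair of sodium transporters. NAK1 (Cre06.g263950), a sodium/potassium-exchanging ATPase, had 36.2, 33.1 and 27.1 TPM in NaCl 30 min, against 25.1, 16.1, 22.2, 18.6 and 13.4 TPM in control 0 h. The groups did not overlap, but the lowest treated library was close to the highest control, and the difference passed the looser limit after scaling alone (1.49 ± 0.18, adjusted p = 5.5e-05; 0.74 ± 0.27, adjusted p = 0.022 as deposited). The sodium/hydrogen exchanger NHX (Cre01.g034150) had 5.86, 6.28 and 5.08 TPM in NaCl 30 min, against 13.3, 7.57, 10.5, 8.18 and 7.59 TPM in control 0 h. This is a log2 fold change of −0.60 ± 0.27 as deposited (adjusted p = 0.062), close to the shift of the median transcript, and of 0.09 ± 0.18 after scaling (adjusted p = 0.74).

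Enzymes of inositol and lipid metabolism were among the few groups with several increases. INO1 (Cre03.g180250), the synthase that makes inositol phosphate from glucose 6-phosphate and so opens the pathway to inositol and the phosphoinositides, had 528, 514 and 470 TPM in NaCl 30 min, against 242, 122, 185, 164 and 141 TPM in control 0 h (2.95 times, log2 fold change 1.59 ± 0.26, adjusted p = 6.2e-05, with 2.37 ± 0.17 and adjusted p = 9e-07 after scaling). INP5 (Cre12.g530050), an inositol polyphosphate 5-phosphatase, which removes a phosphate from phosphoinositides, had 17.8, 17.9 and 19.9 TPM in NaCl 30 min, against 7.33, 6.22, 7.84, 4.26 and 3.49 TPM in control 0 h (1.56 ± 0.28, adjusted p = 0.00015, with 2.26 ± 0.18 after scaling). An ORMDL protein (Cre12.g516100), of a family that in yeast and animals restrains sphingolipid synthesis, had 119, 120 and 99.1 TPM in NaCl 30 min, against 53.7, 39.2, 57.7, 42.8 and 51.6 TPM in control 0 h (1.20 ± 0.25, adjusted p = 0.0005, with 1.96 after scaling). In each of the 3 the treated libraries were above all controls on both scales, beside 8.81% of all transcripts as deposited and 20.3% after scaling. INO1 and INP5 passed the stricter limit after scaling with any library left out. An oxysterol-binding protein (Cre16.g653700), a carrier of lipids between membranes, had 16.7 ± 1.25 TPM in NaCl 30 min and 9.92 ± 2.41 TPM in control 0 h (SD), and passed the looser limit after scaling alone (1.44; 0.72 as deposited). Of 16 tested members 3 rose and 1 fell, with medians of −0.17 as deposited and 0.51 after scaling, the second highest of the lists after scaling.

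Among proteins of the cytoskeleton and of membrane traffic, single members rose. A katanin (Cre12.g541300), which severs microtubules, had 16.1, 11 and 16.4 TPM in NaCl 30 min, against 4.43, 2.58, 3.81, 3.01 and 6.13 TPM in control 0 h (3.64 times, 1.66 ± 0.29, adjusted p = 0.0001, with 2.32 after scaling). A retromer subunit (Cre07.g326450), part of the coat that returns cargo from endosomes, had 22.2, 21.8 and 25 TPM in NaCl 30 min, against 13.9, 8.96, 12.2, 5.95 and 7.66 TPM in control 0 h (1.21 ± 0.28, adjusted p = 0.0014, with 1.94 after scaling). Both were above the controls in every library, beside 8.81% of all transcripts as deposited. The clathrin interactor Cre16.g664450 had 10.4, 10.7 and 11 TPM in NaCl 30 min, against 8.55, 3.61, 4.27, 5.42 and 4.74 TPM in control 0 h, and passed the looser limit after scaling alone (1.61; 0.94 as deposited). A palmitoyltransferase, PAT (Cre06.g277000), an enzyme that anchors proteins in membranes, fell (1.03, 1.72 and 1.05 TPM in NaCl 30 min, against 5.8, 5.14, 11.3, 4.42 and 4.72 TPM in control 0 h; −1.63 ± 0.30, adjusted p = 0.00018, with −1.06 after scaling). PAT was just inside the limit after scaling and lost it without NaCl replicate 1 (−0.98), NaCl replicate 3 (−0.95) or control replicate 3 (−0.94). Of the vesicle trafficking list 1 of 18 rose and 1 fell, and of the cytoskeleton list 1 of 16 rose and 0 fell. Of all transcripts 5.59% rose and 6.29% fell. The medians of these lists after scaling were 0.40 and 0.46.

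For signalling kinases and phosphatases, counts past the limit on both scales stand beside 5.59% of all transcripts higher and 6.29% lower. At such shares a small list can hold no such member. More members passed after scaling alone. In the list of other protein kinases 2 of 23 rose and 1 fell (CDKB1, described with the cell cycle), while 6 were higher after scaling, beside 11.7% of all transcripts, and the medians were −0.60 as deposited and −0.04 after scaling. A WNK kinase (Cre01.g040200), of a family that in animals senses chloride and cell volume, had 53.1, 53.1 and 67.1 TPM in NaCl 30 min, against 32.4, 22.2, 31.6, 21.9 and 26.8 TPM in control 0 h (2.14 times, 1.08 ± 0.25, adjusted p = 0.0015, with 1.84 ± 0.16 and adjusted p = 2.7e-06 after scaling). The groups were apart, and as deposited the limit was missed without NaCl replicate 3 (0.97). A kinase described only by its activity (Cre14.g628200) also rose, with less even values (12.4, 8.84 and 4.32 TPM in NaCl 30 min, against 3.74, 2.62, 3.06, 2.87 and 0.806 TPM in control 0 h; 1.37 ± 0.34, adjusted p = 0.0025, with 1.99 after scaling). In both groups the library of the later series was the lowest for this kinase, and as deposited it missed the limit without NaCl replicate 1 (adjusted p = 0.024) or NaCl replicate 2 (adjusted p = 0.015). In the mitogen-activated protein kinase cascade, 0 of 7 members rose or fell on both scales, and the kinase kinase MAPKK (Cre08.g384900) had 13.1 ± 2.21 TPM in NaCl 30 min and 19.8 ± 9.99 TPM in control 0 h (SD; −0.41, adjusted p = 0.36, with 0.33 after scaling). A MEKK-related kinase (Cre03.g205950) had 59 ± 11.6 TPM in NaCl 30 min and 29.6 ± 7.87 TPM in control 0 h (0.99 ± 0.27, adjusted p = 0.0045, with 1.75 after scaling), just outside the looser limit as deposited. The calcium-dependent kinases had 0 of 8 members past the limit on both scales, the protein phosphatases 0 of 5 and cyclic nucleotide signalling 0 of 6. Their medians after scaling were 0.42, 0.88 and 0.37, of which that of the phosphatases was the highest of the 23 lists.

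The nucleolus and ribosome biogenesis list was the lowest of the 23 lists on both scales. Its median log2 fold change was −1.85 as deposited and −1.18 after scaling, and 6 of its 8 tested members fell, beside 6.29% of all transcripts. All 8 had every NaCl 30 min library below every control 0 h library on both scales, beside 40.9% of all transcripts as deposited and 19.6% after scaling. Nucleolin (Cre06.g275100), a major nucleolar protein that acts in the early processing of ribosomal RNA, had 157, 117 and 144 TPM in NaCl 30 min, against 896, 413, 594, 651 and 412 TPM in control 0 h (4.26 times lower, −2.03 ± 0.28, adjusted p = 9.9e-06, with −1.26 ± 0.20, adjusted p = 0.00044 after scaling). A protein described as nucleolar (Cre16.g690500) had 33.1, 36.5 and 45 TPM in NaCl 30 min, against 290, 147, 214, 238 and 192 TPM in control 0 h (5.66 times lower, −2.44 ± 0.26, adjusted p = 4.6e-07, with −1.68 after scaling). NAP57 (Cre03.g172950), the family of pseudouridine synthases that modify ribosomal RNA, had 43.8, 37 and 74 TPM in NaCl 30 min, against 229, 130, 186, 171 and 238 TPM in control 0 h (−1.90 ± 0.28, adjusted p = 2e-05, with −1.13 after scaling). For these 3 the highest treated library was well below the lowest control. After scaling NAP57 missed the limit without NaCl replicate 1 (adjusted p = 0.019), NaCl replicate 2 (−0.99) or control replicate 5 (−0.97).

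The remaining members were less abundant. The cell growth-regulating nucleolar protein Cre17.g701050 nearly disappeared, with 0.547, 0.766 and 0.749 TPM in NaCl 30 min, against 26.2, 6.73, 5.27, 15 and 9.5 TPM in control 0 h (−2.80 ± 0.38, adjusted p = 2e-05, with −2.28 ± 0.39, adjusted p = 0.00063 after scaling). It was the single member called at the stricter limit on both scales, and it stayed so with any library left out. TSR4 (Cre03.g149500), which in yeast acts in the processing of the small subunit's RNA, had 0.813, 1.53 and 1.25 TPM in NaCl 30 min, against 13, 3.85, 6.6, 7.0 and 4.98 TPM in control 0 h (−1.80, with −1.24 after scaling), and PINX1 (Cre07.g347400) had 2.44, 1.61 and 3.57 TPM in NaCl 30 min, against 12.9, 6.79, 9.9, 10.1 and 14.7 TPM in control 0 h (−1.74, with −1.12 after scaling). After scaling TSR4 missed the limit without NaCl replicate 1 or 3 (adjusted p = 0.019 and 0.013), and PINX1 without NaCl replicate 1 or 2 or control replicate 1, 4 or 5 (log2 fold changes −0.95 to −1.12). The ribosomal RNA methyltransferase NOP2 (Cre06.g273413) was just outside the limit after scaling (−0.99 ± 0.20, adjusted p = 0.0019; −1.71 as deposited), and a WD40 protein of the 18S rRNA processing complex (Cre10.g465650) had a mean of 0.642 TPM in NaCl 30 min and 1.68 TPM in control 0 h (−0.70, with −0.31 after scaling). After scaling, the number of members past the limit ranged from 3 to 7 over the alternatives, with 4 without NaCl replicate 1 or NaCl replicate 2 and 3 with the replicate number as a block. The list's median stayed below that of all transcripts under every alternative run, between −1.07 and −1.31 after any of the scalings and between −1.67 and −2.06 without one.

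**Figure D3:**
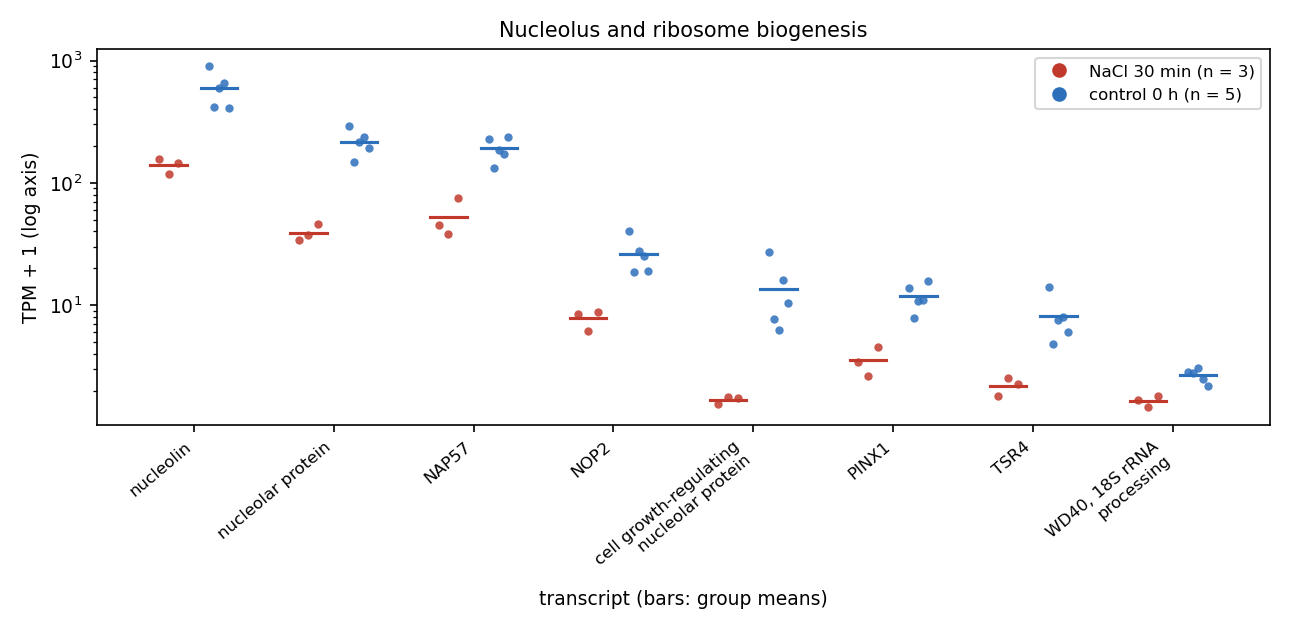
TPM + 1 on a logarithmic axis in each NaCl 30 min (red) and control 0 h (blue) library for the 8 tested members of the nucleolus and ribosome biogenesis list, with group means as short bars. In all 8 the NaCl 30 min libraries lie below the control 0 h libraries.

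A pair of ribosomal protein genes, the most abundant members named from the translation list, gave other values than the nucleolar genes. RPL9 (Cre12.g494050) had 5740, 4758 and 8082 TPM in NaCl 30 min, against 6199, 4479, 6496, 4995 and 5854 TPM in control 0 h, and RPS25 (Cre08.g382500) had 5106, 4189 and 9136 TPM in NaCl 30 min, against 5340, 4166, 5420, 4576 and 9163 TPM in control 0 h. As deposited the groups overlapped for both (0.12 ± 0.27, adjusted p = 0.71, for RPL9; 0.08 ± 0.31, adjusted p = 0.85, for RPS25). After scaling they were 0.90 ± 0.18 (adjusted p = 0.0019) and 0.85 ± 0.31 (adjusted p = 0.044). Other translation genes fell: a subunit of the initiation factor eIF2B (Cre12.g558650), which recharges eIF2 with GTP, had 7.57, 7.24 and 6.32 TPM in NaCl 30 min, against 44.8, 26.2, 34.8, 30.3 and 15.9 TPM in control 0 h (−1.89 ± 0.30, adjusted p = 3.8e-05, with −1.17 after scaling), and so did the tRNA(Met) cytidine acetyltransferase Cre03.g192850 (−1.72, with −1.05 after scaling, and −0.92 without NaCl replicate 2, −0.96 without control replicate 1 and −0.95 without control replicate 4, where it missed the limit). Without NaCl replicate 3 its adjusted p after scaling was 0.012. In the translation list 0 of 14 members rose and 2 fell, with medians of −0.79 as deposited and −0.03 after scaling.

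Of the photosynthesis, carbon fixation and pigment genes, 2 of 17 fell and 0 rose, and both belong to the handling of inorganic carbon. LCIC (Cre06.g307500), a low-CO2 inducible protein of the carbon-concentrating mechanism, had 85.3, 60.4 and 98.7 TPM in NaCl 30 min, against 705, 348, 499, 407 and 472 TPM in control 0 h (5.97 times lower, −2.55 ± 0.27, adjusted p = 4.6e-07, with −1.78 ± 0.18, adjusted p = 1.4e-05 after scaling). A carbonic anhydrase (Cre09.g405750), which interconverts CO2 and bicarbonate, had 9.41, 11.4 and 12.3 TPM in NaCl 30 min, against 49.4, 49, 72.1, 46.1 and 47.3 TPM in control 0 h (4.77 times lower, −2.14 ± 0.26, adjusted p = 1.7e-06, with −1.40 after scaling). As deposited every treated library was below every control for both, beside 40.9% of all transcripts. Subunit H of magnesium chelatase (Cre07.g325500), at the entry to chlorophyll synthesis, had 74.8, 74.7 and 76.8 TPM in NaCl 30 min, against 391, 230, 328, 270 and 126 TPM in control 0 h (−1.72 ± 0.30, adjusted p = 0.00012 as deposited, with −0.95 ± 0.22, adjusted p = 0.005 after scaling). The photosystem II polypeptide PSBR (Cre06.g261000) had 3678 ± 317 TPM in NaCl 30 min and 6408 ± 1822 TPM in control 0 h (SD), a log2 fold change of −0.75 ± 0.29 as deposited (adjusted p = 0.029) and of 0.03 ± 0.17 after scaling (adjusted p = 0.92).

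Cell cycle and DNA replication genes were mostly lower as deposited, where 7 of 15 passed the looser limit downwards and 0 upwards, beside 27.4% of all transcripts downwards. After scaling 1 passed downwards and 1 upwards, and the list's median was −0.34 (−0.95 as deposited). The member that fell on both scales was CDKB1 (Cre08.g372550), the plant-specific cyclin-dependent kinase that drives entry into mitosis, with 10.5, 12.9 and 11.7 TPM in NaCl 30 min, against 63.7, 38.4, 61.7, 37.5 and 33.6 TPM in control 0 h (4.01 times lower, −1.87 ± 0.28, adjusted p = 1.9e-05, with −1.13 ± 0.17, adjusted p = 0.00022 after scaling). RIR2 (Cre12.g491050), the small subunit of ribonucleotide reductase, which makes deoxyribonucleotides, had 25.4, 20.7 and 25.9 TPM in NaCl 30 min, against 133, 57.7, 107, 71.6 and 59.4 TPM in control 0 h (−1.72 ± 0.29, adjusted p = 7.9e-05, with −0.96 ± 0.18, adjusted p = 0.0012 after scaling, just outside the limit). Its partner RIR1 (Cre12.g492950) had 24.2 ± 7.96 TPM in NaCl 30 min and 72.3 ± 23.1 TPM in control 0 h (SD; −1.53, with −0.77 after scaling). The helicase subunit MCM4 (Cre07.g316850) had 5.01 ± 0.984 TPM in NaCl 30 min and 12.1 ± 4.11 TPM in control 0 h (−1.07, with −0.39 after scaling).

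Further decreases on both scales came from several lists. A thioredoxin-like protein (Cre12.g496700) had 5.52, 7.07 and 3.88 TPM in NaCl 30 min, against 40.8, 36.1, 42.2, 34.3 and 14.2 TPM in control 0 h (−2.35 ± 0.32, adjusted p = 1e-05, with −1.64 ± 0.29, adjusted p = 0.00084 after scaling). The EDA phosphoglycerate dehydrogenase (Cre07.g344600), which opens serine synthesis, had 4.65, 2.73 and 3.18 TPM in NaCl 30 min, against 18, 9.31, 16.8, 16 and 9.98 TPM in control 0 h (−1.71, with −1.04 after scaling, and −0.96 without NaCl replicate 2, −0.93 without NaCl replicate 3 and −0.93 without control replicate 4, where it missed the limit). LEO1 (Cre12.g524950), a ribosome-binding GTPase of the chloroplast, had 1.26, 0.176 and 1.08 TPM in NaCl 30 min, against 10.5, 5.09, 8.34, 5.17 and 3.22 TPM in control 0 h (−1.99 ± 0.33, adjusted p = 6.9e-05, with −1.50 after scaling). As deposited, every treated library was below every control for these 3, beside 40.9% of all transcripts. CEP19 (Cre12.g487350), a centrosomal and ciliary base protein, was the single member of 27 in the cilia list to fall (1.34 ± 0.600 TPM in NaCl 30 min and 7.68 ± 1.88 TPM in control 0 h, SD; −1.89, with −1.33 after scaling), and 0 rose. A DEAD box helicase (Cre02.g118300) fell as well (−2.23, with −1.53, adjusted p = 0.0088 after scaling), but its controls ranged from 15.1 to 65.7 TPM, and after scaling it missed the limit without any NaCl 30 min replicate or without control replicate 1 or 4 (adjusted p 0.018 to 0.044).

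Some further lists had few members or none past the limit on both scales, beside 5.59% of all transcripts higher and 6.29% lower. The lists hold only genes described in the sources used here, and the enzymes that make glycerol from glycolytic intermediates are not covered. In the list named starch, glycolysis and glycerol metabolism 0 of 11 members rose or fell, with medians of −0.60 as deposited and 0.13 after scaling. Alpha-glucan water dikinase GWD1 (Cre07.g319300), which phosphorylates starch before its breakdown, had 15.2, 17.2 and 4.9 TPM in NaCl 30 min, against 10.7, 9.29, 11.8, 5.98 and 2.02 TPM in control 0 h (0.59 ± 0.49, adjusted p = 0.31, with 1.29, adjusted p = 0.035 after scaling), with the lowest value of each group in the later library series. The chaperones HSP70A (Cre08.g372100) and HSP90C (Cre12.g514850) had 265 ± 29.2 and 24 ± 4.39 TPM in NaCl 30 min, and 619 ± 152 and 64.8 ± 22.7 TPM in control 0 h (SD). These are log2 fold changes of −1.19 and −1.33 as deposited and of −0.42 and −0.57 after scaling (adjusted p = 0.04 and 0.045), so that no increase of these heat shock genes was seen at 30 min. In the flagellar associated protein list 0 of 17 passed on both scales.

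Of the genes whose products the study tagged for imaging, PAT and LEO1 fell, as given above, and 4 others did not pass the looser limit after scaling. The starch synthase STA2 (Cre17.g721500), which labels starch, had 154 ± 31.6 TPM in NaCl 30 min and 238 ± 64.9 TPM in control 0 h (SD; −0.60, with 0.17 after scaling). CAH6 (Cre12.g485050), which labels the flagella, had 51.2 ± 6.58 TPM in NaCl 30 min and 90.8 ± 19.6 TPM in control 0 h (−0.80, with −0.03 after scaling). The remorin REM (Cre16.g661700), which labels the secretory pathway, had 5.22, 5.84 and 5.61 TPM in NaCl 30 min, against 14.6, 14.4, 18.6, 8.26 and 10.3 TPM in control 0 h (−1.07 ± 0.28, adjusted p = 0.0034, with −0.37 ± 0.19, adjusted p = 0.14 after scaling). The profilin PRF (Cre10.g427250), which binds actin monomers, had 192 ± 76.5 TPM in NaCl 30 min and 236 ± 84.6 TPM in control 0 h (−0.30, with 0.47, adjusted p = 0.23 after scaling).

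The 2 lists that the study drew from other kinds of data are set beside all transcripts, of which 5.59% rose and 6.29% fell. Whether their counts differ from those shares was not tested. Of the 27 tested members of the phosphoproteome list, genes of the study's strongest phosphorylation changes, 2 rose (INP5, and POC3, Cre17.g730650, a dysferlin-related protein) and 1 fell (NAP57). POC3 had 19.2, 14.2 and 17.3 TPM in NaCl 30 min, against 7.28, 6.75, 7.26, 3.85 and 6.62 TPM in control 0 h (1.30 ± 0.27, adjusted p = 0.00058, with 2.00 ± 0.20 after scaling). Of the 48 tested mutant screen hits, 1 rose (AP2) and 2 fell (EDA and LEO1). The medians of both lists, −0.47 and −0.59 as deposited and 0.22 and −0.04 after scaling, stand beside −0.63 and −0.11 for all transcripts.

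**Figure D4:**
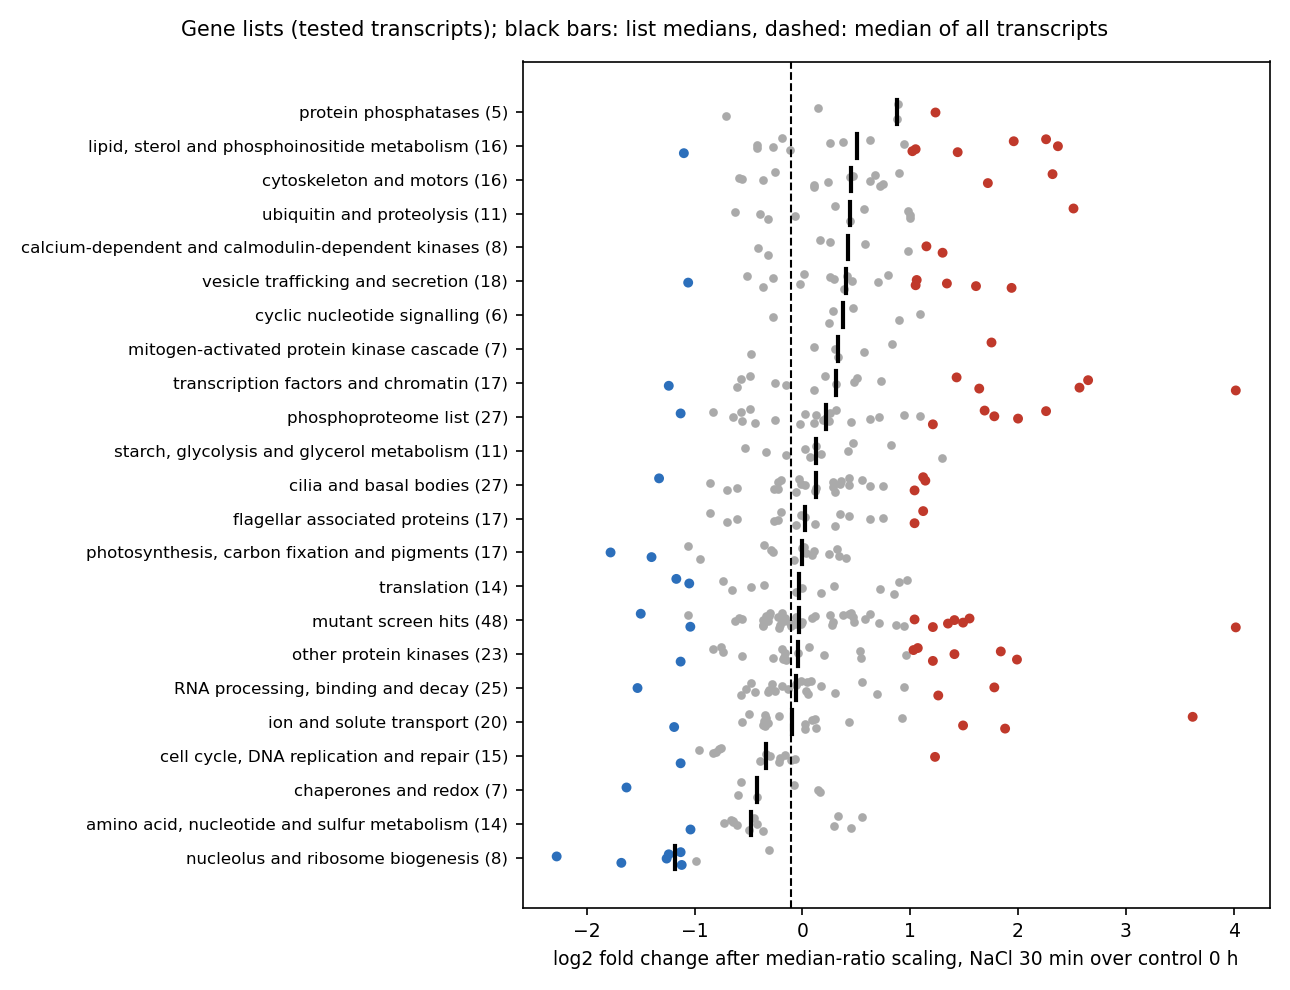
Log2 fold change of NaCl 30 min over control 0 h after median-ratio scaling (horizontal axis) for each tested member of the 23 gene lists (rows, number of members in brackets). Red and blue points passed the looser limit after scaling, black bars are list medians, and the dashed line is the median of all tested transcripts, −0.11; the nucleolus and ribosome biogenesis list lies lowest, with a median of −1.18.

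A direct comparison with NaCl 15 min, the time before, asks where the cells still differed between 15 and 30 min. As deposited 26 transcripts (0.190%) were called, 6 higher and 20 lower (0.147%) at 30 min, and after scaling 44 (0.322%), 36 higher and 8 lower (0.0586%). On both scales 6 were higher and 8 lower. No described transcript was among these 14. Of those singled out after their values were seen, g9779.t1 had 9.34, 9.16 and 12.8 TPM at NaCl 30 min, against 0.651, 0.785 and 1.1 TPM at NaCl 15 min (2.62 ± 0.22, adjusted p = 0.00071, with 2.99 after scaling). Among the decreases, g16153.t1 had 2.0, 1.34 and 1.23 TPM at NaCl 30 min, against 12.5, 14.7 and 23.3 TPM at NaCl 15 min (−2.79 ± 0.26, adjusted p = 0.00073, with −2.52 after scaling). The libraries of the 2 times did not overlap for either transcript, but the share of all transcripts without such overlap was not counted. Without NaCl 30 min replicate 3 the count as deposited was 39, and without any other library it was between 18 and 34.

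Described genes followed several courses over the first hour, given here as values of the NaCl 15, 30 and 60 min libraries. AP2 was high early and had returned at 60 min, with 33.6, 35.6 and 48.5 TPM at 15 min, 49.8, 49.3 and 87 TPM at 30 min and 4.88, 2.81 and 5.59 TPM at 60 min. NAK1 had 28.3, 29.5 and 20 TPM at 15 min, 36.2, 33.1 and 27.1 TPM at 30 min and 3.71, 4.85 and 3.81 TPM at 60 min, below every control 0 h library. The retromer subunit (Cre07.g326450) had 7.68, 9.26 and 7.19 TPM at 15 min, 22.2, 21.8 and 25 TPM at 30 min and 22.5, 22.3 and 25.9 TPM at 60 min. It was thus at control levels at 15 min and had reached its later level by 30 min (30 against 15 min: 1.41 ± 0.18, adjusted p = 0.0016, with 1.81 after scaling).

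Nucleolin moved through the hour in steps, with 346, 499 and 271 TPM at 15 min, 157, 117 and 144 TPM at 30 min and 11.5, 13.7 and 15.5 TPM at 60 min (30 against 15 min: −1.38 ± 0.24, adjusted p = 0.0049, with −0.97, adjusted p = 0.017 after scaling). LCIC had 255, 295 and 125 TPM at 15 min, 85.3, 60.4 and 98.7 TPM at 30 min and 54.4, 75 and 89.4 TPM at 60 min, so that 30 and 60 min libraries overlapped. INO1 had 348, 360 and 327 TPM at 15 min, 528, 514 and 470 TPM at 30 min and 522, 638 and 687 TPM at 60 min. Values at 60 min were not tested against those at 30 min.

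Mannitol at 30 min, 300 mM, an osmolyte without ions, was compared with NaCl at the same time. As deposited 192 transcripts (1.41%) were called, 63 higher and 129 lower in NaCl 30 min, and after scaling 297 (2.18%), 265 higher and 32 lower. On both scales 62 were higher and 32 lower. As deposited, the SE were close to equal for the genes given here and below, whatever the spread of their libraries. Adjusted p from limma went down to 2.8e-24 (g16153.t1) with 3 libraries per group. The p as deposited in this comparison, and the calls resting on them, therefore do not measure the replicate spread of single transcripts. The mannitol libraries were uneven: without mannitol replicate 1 the count as deposited was 112, and without mannitol replicate 2 it was 342. The calcium-activated chloride channel regulator (Cre12.g500550) had 249, 208 and 198 TPM in NaCl 30 min, against 30.8, 65.2 and 28.8 TPM in mannitol 30 min (2.46 ± 0.31 as deposited, with 3.12, adjusted p = 0.00049 after scaling). AP2 had 49.8, 49.3 and 87 TPM in NaCl 30 min, against 14.3, 29.7 and 15.8 TPM in mannitol 30 min (1.61 ± 0.31, with 2.26, adjusted p = 0.0015 after scaling). In both genes mannitol replicate 2 was the highest of its group and still below every NaCl library.

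Of the 8 tested members of the nucleolar list, 2 are given for this comparison, and both were lower in NaCl than in mannitol. One of them, Cre17.g701050, had the largest decrease of the list against control 0 h. Over all tested transcripts the median log2 fold change of NaCl over mannitol was −0.58 as deposited and −0.13 after scaling. Nucleolin had 157, 117 and 144 TPM in NaCl 30 min, against 543, 520 and 378 TPM in mannitol 30 min (−1.77 ± 0.32, with −1.10, adjusted p = 0.0054 after scaling). The cell growth-regulating nucleolar protein (Cre17.g701050) had 0.547, 0.766 and 0.749 TPM in NaCl 30 min, against 13.2, 7.36 and 10.8 TPM in mannitol 30 min (−2.73 ± 0.35, with −2.30, adjusted p = 0.00049 after scaling). For neither did the groups overlap, but the share of all transcripts without overlap in this comparison was not counted. For the cell cycle gene CDKB1 no difference was detected: it had 10.5, 12.9 and 11.7 TPM in NaCl 30 min, against 28, 9.85 and 19.5 TPM in mannitol 30 min (−0.55 ± 0.32, adjusted p = 0.14, with 0.08, adjusted p = 0.87 after scaling). NAK1 likewise overlapped between the osmolytes, with 36.2, 33.1 and 27.1 TPM in NaCl 30 min, against 20.9, 37.8 and 15 TPM in mannitol 30 min (0.46 ± 0.31, adjusted p = 0.2, with 1.12, adjusted p = 0.034 after scaling). The molar concentrations of the osmolytes differ.

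**Figure D5:**
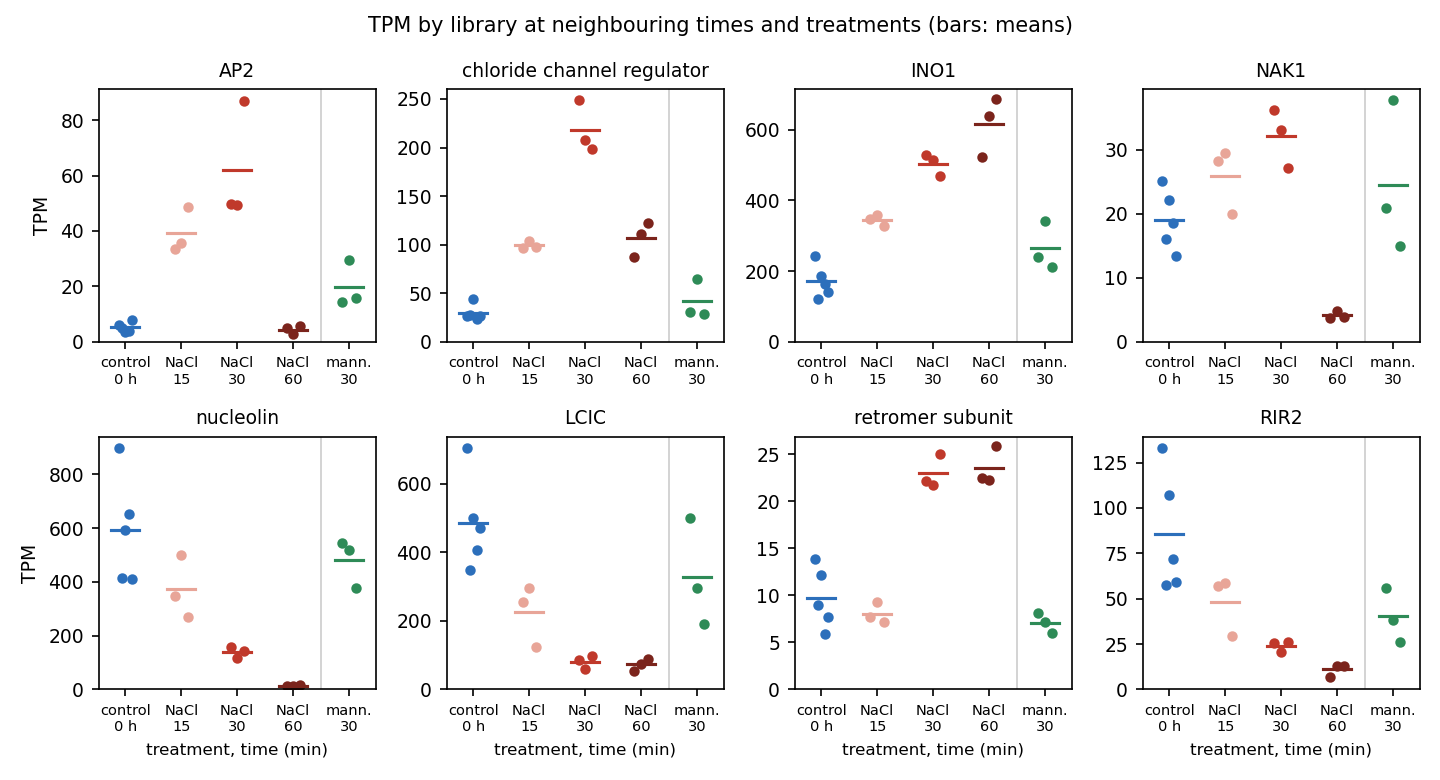
TPM (vertical axis, from 0) in each library of control 0 h, NaCl 15, 30 and 60 min and mannitol 30 min for 8 described genes; short bars are group means. AP2 is highest at NaCl 30 min (49.3 to 87 TPM) and at 2.81 to 5.59 TPM at 60 min, while nucleolin is lower at each later time.

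Of the 177 genes called higher on both scales, 130 could be placed in the gene order of the reference annotation, and 7 pairs of direct neighbours were both called, among them Cre11.g482650 and its neighbour Cre11.g482626. There were 7016 pairs of neighbours in which both members were tested. Of the 60 genes called lower on both scales, 50 could be placed and 0 pairs were neighbours. The genes placed were 1.31% (higher) and 0.505% (lower) of all tested genes in that order. Whether the counts of pairs differ from what such shares would give was not tested. Neighbouring and overlapping gene models can share reads, and the share of such reads was not tested.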

How the data were processed

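The authors deposited TPM, 1 column per library. Per the paper's methods, BWA was the aligner, genome version 5.6 the reference, and DESeq2 the tool behind the authors' own calls. How the TPM were calculated is not given in the sources used here. The deposited TPM were tested as log2(TPM + 1) with limma 3.58.1 in R 4.3.3 (lmFit, eBayes with trend and robust) on the 2 groups compared. Of 19526 transcripts, 13651 were tested, those that reached a TPM of 1 in 3 or more of the 45 libraries. Benjamini-Hochberg adjustment was over all of these. The log2(TPM + 1) scale understates changes of low transcripts. Scaling factors came from the 10384 tested transcripts above 0 in every library. The procedure was also run on libraries simulated from the control means and spreads, with as many transcripts raised as lowered. They held no library series and no shift of most transcripts, so that run does not bear on either.

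The members and lists were chosen with earlier results of these data known. The rule named the described transcripts called on both scales with groups apart (up to 12 increases and 8 decreases). By the same criteria it named the 4 largest changes in each direction whatever the annotation. It also named up to 4 members of each list with the largest change after scaling and its most abundant member, genes the paper's text names, and g15293.t1 and g15294.t1. PINX1, NOP2, the WD40 protein, RIR1, MCM4, g9779.t1 and g16153.t1 were chosen after their values were seen. Lists were built from descriptions, because 40 of 41 name patterns matched at most 5 tested transcripts each. Per the methods the times of a course shared a flask, but replicate numbers are not tied to flasks. Same-numbered NaCl 15 and 30 min replicates had correlated deviations (0.13, 0.13 and 0.42), as did replicates 1 and 2 across numbers (0.22 and 0.23), so the pairing is uncertain. Replicate 3 of both times came from the later library series, so a shared flask and a shared series cannot be told apart for the 0.42. A block on that number left 26 transcripts called as deposited and 44 after scaling. Sequences and promoters were not analysed here.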

Additional observations from a re-analysis of the deposited data

Results flagged for a closer look

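For each of the 131 named transcripts, the 5 control 0 h libraries were searched for a library whose gap to its nearest neighbour, on the log2 scale after median-ratio scaling, exceeded 0.71 of the range of the 5. Chance gives such a gap in about 1 in 20 groups, and 22 were found, 16 of them with control replicate 5 apart. The values below are the deposited TPM of the library concerned, which need not be extreme before scaling. In control replicate 5 they were 26.8 TPM for the WNK kinase Cre01.g040200, 11.6 for a 26S proteasome subunit (Cre02.g097650), 13.9 for a calmodulin-dependent kinase (Cre02.g113600), 1182 for alpha tubulin TUA1, 2.75 for the unnamed Cre03.g197300, 9163 for RPS25, 6.52 for MAPKK, 2.53 for a cGMP-dependent kinase (Cre09.g401950) and 175 for a bromodomain protein (Cre10.g455500). In the same library they were 14.2 TPM for the thioredoxin-like protein Cre12.g496700, 35.5 for HSP90C, 6.13 for the katanin Cre12.g541300, 8.45 for the splicing factor PRP18A, 68.4 for a calcium-dependent kinase (Cre17.g705000), 33.7 for a cullin (Cre17.g734400) and 225 for a translocon-associated protein (Cre17.g741000). Control replicate 1 stood apart for the carbonic anhydrase Cre09.g405750 (49.4 TPM) and FAP126 (48.6 TPM), control replicate 2 for CDPK (Cre03.g153150, 1.77 TPM), control replicate 3 for the starch branching enzyme SBE (104 TPM), and control replicate 4 for a calmodulin-dependent kinase (Cre13.g592000, 6.29 TPM) and glutamate synthase (Cre13.g592200, 72.7 TPM).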

How the results depend on the processing

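Of 4307 named fold changes over 33 alternatives, 234 (of 31 transcripts) had another sign than as deposited, none of them called in either setting; 16 transcripts did so after median-ratio scaling. No called value changed sign, 92 values lost the call and 186 gained it, and 15 of the 18 named transcripts called on both scales stayed called in each. The scaling moved the balance of directions: 36.7% of calls were higher as deposited, 53.8% without g15293.t1 and g15294.t1, 52.3% against all 9 controls, 84.2% after quantile normalization and 89.1% after median-ratio scaling. The median log2 fold change, −0.63 as deposited, was −0.48 without g15293.t1 and g15294.t1, −0.50 against all 9 controls, −0.73 in the earlier library series alone, −0.72 at a mean TPM of 5 or more, −0.27 without a filter, −0.88 with a pseudocount of 0.1 and −0.77 with the replicate block. It was −0.11 after quantile or median-ratio scaling, also with the library series block, the earlier series alone or the replicate block. Leaving out each library gave −0.69 to −0.10 over both scales and 444 to 612 calls. Calls numbered 4498, or 32.9% of all transcripts, at a log2 fold change beyond 1 (69 of the 131 named transcripts, 91 of the 306 list members). They numbered 1709 of 13651 with a pseudocount of 0.1 (23 list members). List members called were 9 of 306 as deposited, beside 3.53% of all transcripts. They were 17 in the earlier series alone, beside 642 calls in all, and 16 with the replicate block, beside 627. With a library left out they were 8 to 15 (without NaCl replicate 3, 15 as deposited and 14 after scaling, beside 558 and 612 calls in all). The replicate numbers of NaCl 30 min and control 0 h did not pair the libraries (correlations 0.13, 0.14 and −0.22). NaCl replicate 3 correlated with control replicate 5, of the same later series (0.41), which the replicate block, with 627 calls, did not match. For mannitol 30 min the same-numbered correlations were 0.07, 0.16 and 0.42, the last between libraries of the later series. Replicates 1 and 2 across numbers gave 0.08 and 0.23, so that pairing is uncertain too (193 calls with the block, 305 after scaling). Against NaCl 15 min there were 44 calls after scaling, with or without the replicate block, 138 with a pseudocount of 0.1, 0 by limma without a filter (5215 at an unadjusted p under 0.05) and 18 to 39 with a library left out. Against mannitol 30 min there were 297 after scaling, 1017 with a pseudocount of 0.1, 3 without a filter and 112 to 342 with a library left out. The cause of these shifts was not tested. TPM hold no depth, so no counting error could be given.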
